A study of Mus musculus with 7 samples.

Results

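The genes described are the ligands and receptors of vascular endothelial growth factor (VEGF), with their co-receptors and a secreted VEGF-responsive product, 10 genes of 22180 with a single symbol on the array. The platform annotation gave them by symbol: Vegfa, Vegfb, Vegfc and Pgf (ligands), Kdr, Flt1 and Flt4 (receptors), Nrp1 and Nrp2 (neuropilins) and Esm1. Each had exactly 1 probe set with that symbol alone, and all 10 passed the filter on low values. RNA came from vascular fragments of the brain, pieces of small vessels with attached cells. All mice were female C57BL/6N animals aged 12 weeks, killed 4 hours after an intracerebroventricular (ICV) injection. The treated group received PDGF-CC, a platelet-derived growth factor whose receptor is PDGFR-alpha (4 arrays), and the control group received phosphate-buffered saline, PBS (3 arrays). Whether each array stands for a separate mouse is not given in the sources used here, so every p-value here reflects spread among these arrays only, and that spread may be technical.

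VEGF-A binds the receptor tyrosine kinases encoded by Kdr (VEGFR2) and Flt1 (VEGFR1) on endothelium. VEGFR2 carries most of the signal for growth and permeability, while VEGFR1 binds the ligand tightly with weak kinase activity and can act as a trap. VEGF-B and placental growth factor bind VEGFR1, and VEGF-C binds VEGFR3, encoded by Flt4. Neuropilins hold VEGF at the receptor complex and also bind class 3 semaphorins. In the adult brain VEGF-A is known for opening the blood-brain barrier, and the choroid plexus, whose capillaries are fenestrated, depends on it.

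Promoter sequences are given for the receptor pair Kdr and Flt1, for Nrp1, whose difference had the smallest p of the 10 genes, and for Esm1, whose arrays spread most and stood in the same order as those of Kdr within the PDGF-CC group. They are the 250 bases before a RefSeq transcript start in GRCm38.p6, on the strand of the gene: chr5:75978456-75978705 on the minus strand for Kdr, chr5:147726012-147726261 on the minus strand for Flt1, chr8:128358823-128359072 on the plus strand for Nrp1 and chr13:113209409-113209658 on the plus strand for Esm1. Capitals mark GCGTG on either strand, a core sequence of hypoxia response elements, to which hypoxia-inducible factors bind.
Kdr: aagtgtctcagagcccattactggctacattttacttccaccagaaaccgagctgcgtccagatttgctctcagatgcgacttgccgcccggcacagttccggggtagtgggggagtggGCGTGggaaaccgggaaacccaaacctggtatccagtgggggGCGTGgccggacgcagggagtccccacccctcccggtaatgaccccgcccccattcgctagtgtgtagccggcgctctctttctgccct
Flt1: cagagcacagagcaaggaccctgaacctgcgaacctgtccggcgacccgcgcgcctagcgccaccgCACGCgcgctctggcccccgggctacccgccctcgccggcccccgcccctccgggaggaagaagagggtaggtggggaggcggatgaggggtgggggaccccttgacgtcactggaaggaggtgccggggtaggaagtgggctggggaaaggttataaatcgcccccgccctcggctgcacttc
Nrp1: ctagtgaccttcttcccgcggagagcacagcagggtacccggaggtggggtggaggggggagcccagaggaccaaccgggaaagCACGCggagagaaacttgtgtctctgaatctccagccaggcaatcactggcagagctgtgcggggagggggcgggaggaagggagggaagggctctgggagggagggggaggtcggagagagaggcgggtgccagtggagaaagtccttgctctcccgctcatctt
Esm1: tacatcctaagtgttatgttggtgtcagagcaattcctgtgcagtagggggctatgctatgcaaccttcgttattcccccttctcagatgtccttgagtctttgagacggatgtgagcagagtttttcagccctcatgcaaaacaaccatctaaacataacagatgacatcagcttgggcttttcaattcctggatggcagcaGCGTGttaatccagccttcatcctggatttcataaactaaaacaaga
GCGTG was found in 28.2% of 32851 windows of this length and in the window, or the first of several windows, of 7 of the 10 genes. The other form searched, ACGTG, was found in 16.6% of all windows and in none of the 10 windows counted; both forms share the letters CGTG. Vegfa and Pgf had a second window, and that of Vegfa held ACGTG at 211 and GCGTG at 218 bases before its start, so the counts over genes leave out some matches that the share of all windows includes. Kdr held GCGTG at 131 and 89 bases before the start, Flt1 at 184, Nrp1 at 166 and Esm1 at 47. Of 4 further motifs, also searched on both strands, the box TATAAA stood 31 bases before the start of Flt1 and in no other of the 10 first windows, against 12.4% of all windows. The GC box GGGCGG was in 9 of the 10 (32.7% of all windows) and the ETS core GGAA also in 9 (93.4%). The AP-1 site TGANTCA was in none (6.75%). The Esm1 window was 44% G and C, while those of Kdr, Flt1 and Nrp1 were 61.6%, 70.4% and 64.4%, against a median of 52.4%. These matches are letters in the reference and were not measured in these samples.

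The array values were log2 intensities, and each array was one hybridisation without read depth. The level of one probe set cannot be set against that of another, so only differences between arrays are read. Pearson's r between arrays, across the 17734 tested probe sets, was 0.982 to 0.992. Principal component 1 (28.5% of variance) fell in the order of the numbers 1 to 7 in the sample descriptions, from 24.4 on PDGF-CC array 1 to -14.9 on PBS array 3. On component 2 (23.3%) PBS array 2 stood farthest out. All 15 brain endothelial markers were above the filter, and their mean level was 10.30 to 10.46 on PDGF-CC and 10.30 to 10.54 on PBS arrays. The mean of choroid plexus epithelial markers was lower on every PDGF-CC array (6.32 to 7.16) than on every PBS array (7.23 to 7.58), and that of microglial markers was higher (9.56 to 9.64 against 9.05 to 9.50). Pericyte markers averaged 8.69 to 9.17 in PDGF-CC and 9.01 to 9.28 in PBS arrays. In bulk samples, fewer cells of a type and less RNA per cell cannot be told apart.

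None of the 10 genes passed the adjusted threshold of 0.05 in limma, and 0% of the 17734 probe sets tested did. At an unadjusted p under 0.05 there was 1, Nrp1, which was lower, where 6.04% of all probe sets passed in either direction, 2.63% higher and 3.41% lower. In no gene were the groups free of overlap, against 4.3% of all probe sets, 1.8% with PDGF-CC higher and 2.5% with it lower. The differences, PDGF-CC minus PBS on the log2 scale, were negative in 6 genes and positive in 4, with a median of -0.022, and 51.6% of all probe sets were negative. Each gene's 95% interval from limma, not adjusted for the number of genes, lay between -0.53 and +0.54. That range corresponds to 0.693-fold and 1.46-fold, both set by Esm1. The median size of a difference was 0.062, against 0.078 over all probe sets.

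**Figure D1:**
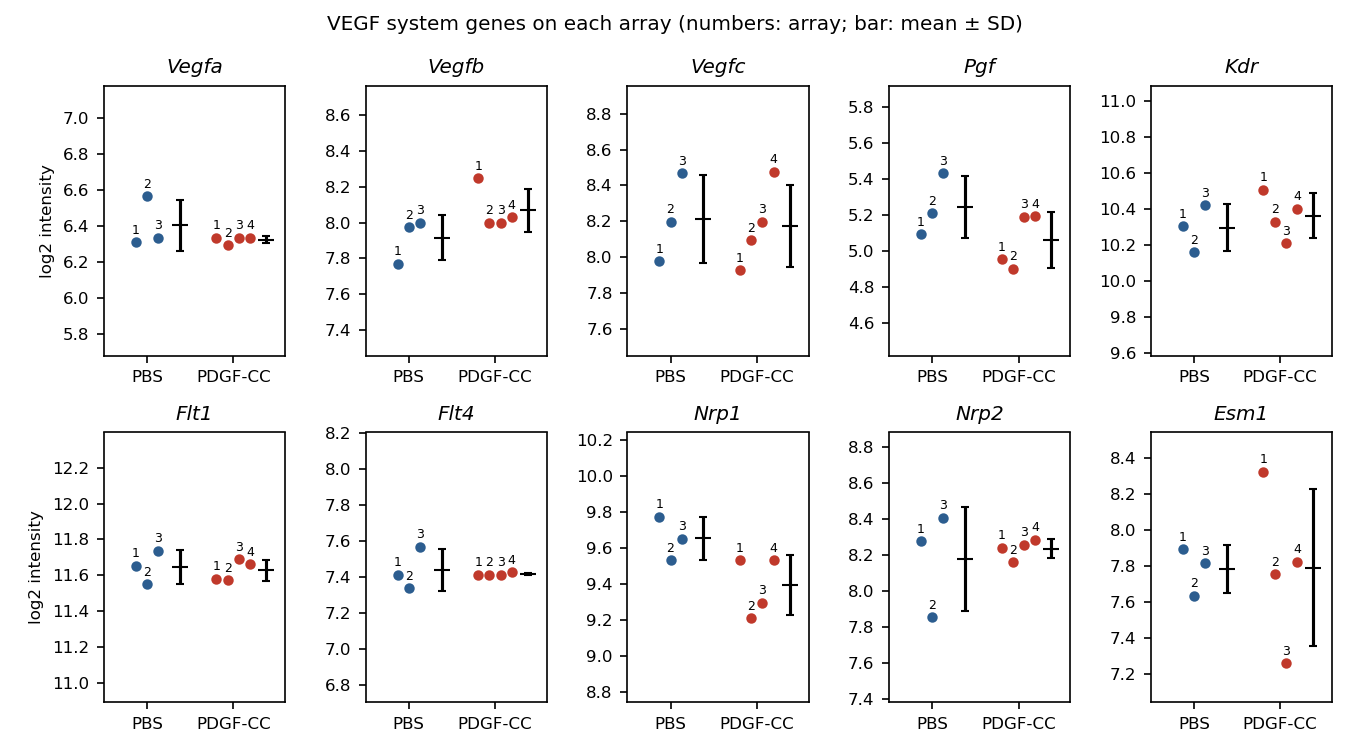
Log2 intensity (vertical axis, the same span in each panel) of the 10 genes on each array, with PBS in blue and PDGF-CC in red, the array number above each point and the mean with its SD in black. Esm1 spreads widest, from 7.26 on PDGF-CC array 3 to 8.32 on PDGF-CC array 1, and Vegfa and Flt4 hold the same value on several arrays.

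Among the ligands, Vegfa, the main angiogenic and permeability factor, read 6.34, 6.29, 6.34 and 6.34 on PDGF-CC arrays 1 to 4 and 6.31, 6.57 and 6.34 on PBS arrays 1 to 3. PBS array 2 stood above the rest, and the other 6 arrays lay within a narrow band that both groups shared. Its difference was -0.078 ± 0.072 (SE, n = 4 and 3; adjusted p = 0.802 by limma), with an interval of -0.25 to +0.091. Without PBS array 2 it was 0.0025. The same array had the highest mean level of choroid plexus markers, 7.58, and its part in the Vegfa value was not tested. On 4 arrays (PDGF-CC 1, 3 and 4 and PBS 3) Vegfa had exactly the same deposited value, 6.3375, and a value shared by 4 or more arrays occurred in 17.3% of probe sets. Such ties narrow the spread within a group, and 5 of the 10 genes had a value shared by at least 2 arrays, as had 63.6% of the tested probe sets.

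Vegfb, a ligand of VEGFR1 linked to fatty acid handling in endothelium, read 8.25, 7.9996, 7.9996 and 8.03 on the PDGF-CC arrays. On the PBS arrays it read 7.77, 7.97 and 7.9996. PDGF-CC array 1 was high and PBS array 1 low, and the other 5 arrays lay close together. The difference of +0.15 ± 0.088 was the largest positive one of the 10 genes with all arrays (adjusted p = 0.769 by limma). It was 0.081 without PBS array 1, where Nrp2 was larger (0.11), and 0.094 without PDGF-CC array 1. Without PDGF-CC array 3 it was 0.176, where Esm1 was larger (0.184). Without any other array it was at most 0.20. It was +0.25 among description numbers 1 to 4 and +0.015 among 5 to 7. These numbers, from 1 to 7, stand in the sample descriptions, run over both groups (PDGF-CC 1, 2, 5 and 6, PBS 3, 4 and 7), and are not explained there.

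Vegfc, the ligand of VEGFR3 and a lymphatic growth factor, read 7.93, 8.10, 8.20 and 8.48 on the PDGF-CC arrays and 7.98, 8.20 and 8.47 on the PBS arrays. Both groups covered nearly the same range, and their means differed by -0.041 ± 0.16 (adjusted p = 0.953 by limma). The sign of this difference changed with the arrays left out, from -0.16 without PBS array 1 to +0.086 without PBS array 3, and it was +0.041 without PDGF-CC array 1. Pgf, which encodes placental growth factor, read 4.95, 4.90, 5.19 and 5.20 after PDGF-CC and 5.09, 5.21 and 5.43 after PBS. The PDGF-CC values were in the lower part of the range, with overlap. Its difference was -0.19 ± 0.11 (adjusted p = 0.770 by limma), and it stayed negative without each array in turn, from -0.26 to -0.092.

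Among the receptors, Kdr read 10.51, 10.33, 10.21 and 10.40 on the PDGF-CC arrays and 10.31, 10.16 and 10.42 on the PBS arrays. The lowest array of all was PBS array 2 and the highest PDGF-CC array 1, with full overlap between. The difference was +0.068 ± 0.092 (adjusted p = 0.858 by limma), with an interval of -0.15 to +0.28. Without PBS array 2 it was -0.000575. It was +0.19 among description numbers 1 to 4 and -0.11 among 5 to 7.

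Flt1 had the narrowest range of the 10 genes, 0.19 over the 7 arrays. It read 11.58, 11.57, 11.69 and 11.66 after PDGF-CC and 11.66, 11.55 and 11.74 after PBS. Its difference was -0.020 ± 0.064, with an interval of -0.17 to +0.13, or 0.889- to 1.09-fold (adjusted p = 0.943 by limma). A second round of quantile normalization turned the sign, to +0.053, and so did leaving out PBS array 3, to +0.025.

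Flt4, typical of lymphatic and fenestrated endothelium, had the same value of 7.41 on PDGF-CC arrays 1, 2 and 3 and on PBS array 1. The remaining PDGF-CC array read 7.43, and the other PBS arrays 7.34 and 7.57, so the PBS group enclosed the PDGF-CC group. The difference was -0.023 ± 0.064 (adjusted p = 0.935 by limma). It was +0.041 without PBS array 3, +0.038 among description numbers 1 to 4 and -0.15 among 5 to 7. Of 6 lymphatic endothelial markers 5 were matched, and of these Prox1, the defining transcription factor, and Reln were under the filter. The mean of the other 3 was 5.56 to 5.89 on PDGF-CC and 5.72 to 5.96 on PBS arrays.

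The ratio of Kdr to Flt1 within each array sets the signalling receptor against the ligand trap, and only its change between arrays is read. On the log2 scale Kdr minus Flt1 was -1.07, -1.24, -1.48 and -1.26 on the PDGF-CC arrays and -1.35, -1.39 and -1.32 on the PBS arrays. The PBS values lay inside the span of the PDGF-CC values, whose SD of 0.166 was above the 0.0371 of the PBS arrays. The mean differed by +0.088, less than the SD between PDGF-CC arrays, and no test was made of it. It was 0.024 without PDGF-CC array 1 and 0.16 without PDGF-CC array 3.

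**Figure D2:**
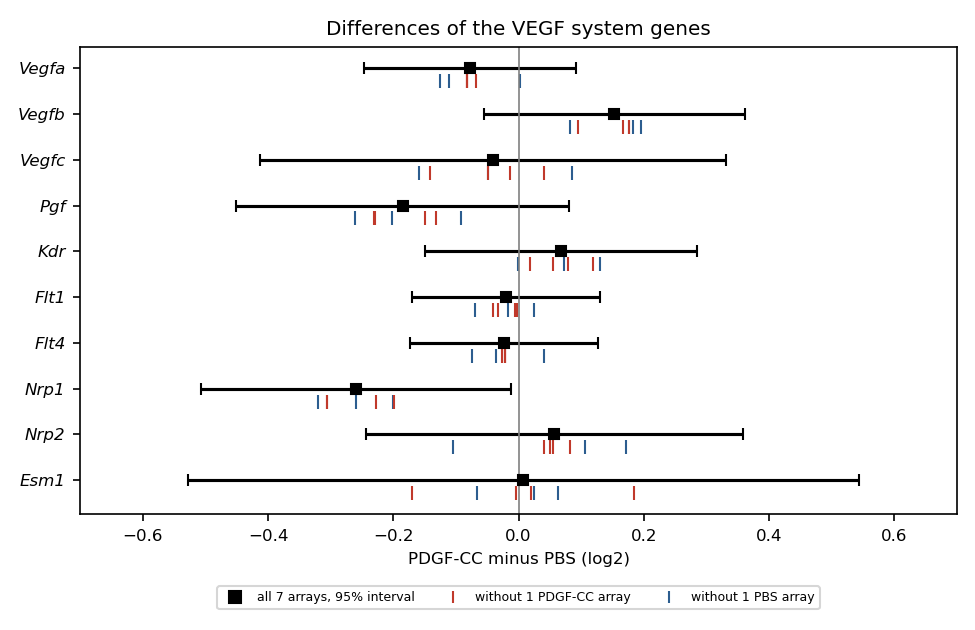
Difference in log2 intensity, PDGF-CC minus PBS (horizontal axis), for each of the 10 genes, with the 95% limma interval over all 7 arrays (black) and the differences with 1 array left out as ticks, red for PDGF-CC and blue for PBS arrays. Nrp1 alone has an interval that leaves out 0, from -0.51 to -0.01, and its ticks run from -0.32 to -0.20.

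Nrp1, the neuropilin that joins VEGFR2 on endothelium and is also found on pericytes and other vessel cells, showed the largest difference. It read 9.53, 9.21, 9.29 and 9.53 on the PDGF-CC arrays and 9.77, 9.53 and 9.65 on the PBS arrays. No PDGF-CC array was above a PBS array, but PDGF-CC arrays 1 and 4 and PBS array 2 held the same value, 9.53, so the groups met. The difference was -0.26 ± 0.10 (unadjusted p = 0.0417, adjusted p = 0.769 by limma), or 0.835-fold. It was -0.28 among description numbers 1 to 4 and -0.24 among 5 to 7. Of 10 pericyte markers 9 were negative too, with a median of -0.26, where 51.6% of all probe sets were negative. The 2 with an unadjusted p under 0.05 encode parts of the same potassium channel. They were Kcnj8, its pore (-0.21 ± 0.060), and Abcc9, its regulatory subunit (-0.35 ± 0.14). Of all probe sets 3.41% were lower at that p. The pericyte marker mean was 8.69, 8.80, 9.06 and 9.17 on PDGF-CC arrays 1 to 4, and Nrp1 was equal on arrays 1 and 4. On PBS arrays 1 to 3 that mean was 9.13, 9.01 and 9.28, with array 2 lowest in both. Most markers were negative for choroid plexus epithelium (7 of 8), neutrophils and monocytes (7 of 8) and perivascular fibroblasts (6 of 8) too. Brain endothelial markers were negative in 10 of 15, while those of microglia (8 of 9) and vascular smooth muscle (7 of 8) were mostly positive. The part of the pericyte markers, or of those of any other cell type, in the Nrp1 difference was not tested.

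Nrp2, the neuropilin that pairs with VEGFR3 and is common on veins and lymphatics, read 8.24, 8.16, 8.25 and 8.28 after PDGF-CC. On the PBS arrays it read 8.27, 7.85 and 8.40. PBS array 2 was the lowest of all, and the remaining arrays were close. The difference was +0.057 ± 0.13 (adjusted p = 0.920 by limma) with all arrays and -0.11 without PBS array 2. It was +0.14 among description numbers 1 to 4 and -0.14 among 5 to 7.

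Esm1 encodes endocan, a secreted proteoglycan that VEGF-A induces in endothelium and that marks tip cells, the leading cells of a sprout. It read 8.32, 7.75, 7.26 and 7.82 on PDGF-CC arrays 1 to 4 and 7.89, 7.63 and 7.82 on PBS arrays 1 to 3. The highest and the lowest of the 7 arrays were both PDGF-CC arrays, 1 and 3, and the PBS arrays lay between them. The difference was +0.0075 ± 0.23 (adjusted p = 0.994 by limma). Leaving out PDGF-CC array 1 gave -0.17, PBS array 2 -0.066, PDGF-CC array 4 -0.0041 and PDGF-CC array 3 +0.18. It was +0.27 among description numbers 1 to 4 and -0.27 among 5 to 7. The residual SD of Esm1, 0.347, was larger than in 96.1% of the tested probe sets. Those of Flt1 and Flt4 were larger than in 19.3% and 19.7%.

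Within the PDGF-CC group, Esm1 and Kdr had the same order of arrays: array 1 highest, then 4, 2 and 3. Markers of fenestrated endothelium, the capillary type of the choroid plexus, shared parts of this pattern. Plvap, which forms the diaphragms of fenestrae, read 8.18, 7.12, 5.97 and 7.12 on the PDGF-CC arrays and 7.28, 7.12 and 6.88 on the PBS arrays. Its highest and lowest arrays were those of Esm1. All 5 markers of the list were lowest on PDGF-CC array 3, and 4 of the 5 (not Gpihbp1) were highest on array 1 within the PDGF-CC group, 2 of them (Plvap and Igfbp3) over all 7 arrays. Among the low ones were Gpihbp1, the endothelial anchor of lipoprotein lipase, at 6.39, and Cd300lg at 5.91. The pattern did not extend to the PBS arrays. Over all 7 arrays the other 3 markers were highest on PBS array 2, the lowest PBS array in Esm1 and the lowest of all in Kdr. The mean of the 5 markers was 8.20, 8.27 and 7.87 on PBS arrays 1 to 3, where Esm1 read 7.89, 7.63 and 7.82. The mean of choroid plexus epithelial markers was lowest on PDGF-CC array 3 as well, at 6.32. On PDGF-CC array 1, the highest in Esm1, that mean was 6.83, below array 4 (7.16) and every PBS array (7.23 to 7.58). Of 15 tip cell genes, 3 were highest on PDGF-CC array 3 among the 7 arrays (Mcam, Apln and Adm). On the same array 2 were lowest (Kcne3, and Igfbp3, which is on both lists). Within the PDGF-CC group 3 were highest and 4 lowest on that array. Apln, the ligand of the apelin receptor, was highest on that array (6.89, against 4.92 to 5.94 on the others), and so was Adm, the adrenomedullin gene (7.32, against 5.33 to 6.19). Adm is also on the list of oxygen sensing and hypoxia targets. This comparison of arrays was chosen after the values were seen, and the part of fenestrated vessels in the Esm1 values was not tested.

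**Figure D3:**
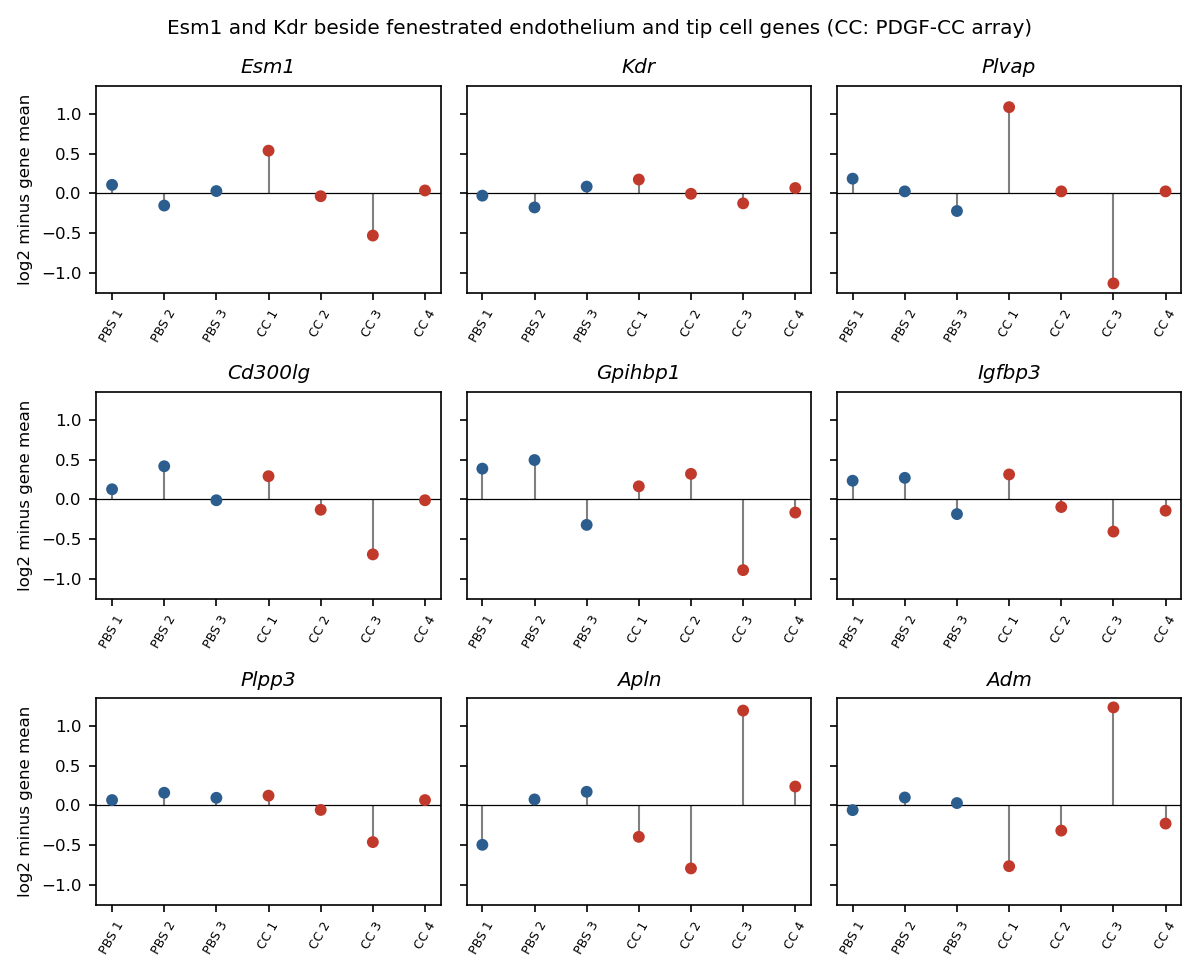
Log2 intensity minus the mean of each gene (vertical axis) on each array (horizontal axis, PBS in blue, PDGF-CC, written CC, in red) for Esm1, Kdr, the 5 markers of fenestrated endothelium and the tip cell genes Apln and Adm. Esm1 and Plvap are highest on PDGF-CC array 1 and lowest on array 3, where Apln and Adm are highest. Apln and Adm were chosen with values known. Of the 15 tip cell genes 3 were highest and 2 lowest on that array among all arrays. Of the 5 markers of fenestrated endothelium 3 were highest on PBS array 2.

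Across the 7 arrays, the probe sets closest to each of the 5 genes with a range over 0.5 were found by the root mean square (RMS) distance between profiles centred on their means. Closest to Nrp1 were Tbc1d9 (distance 0.0310), Pctp, which encodes a phosphatidylcholine carrier (0.0479), and Ebf1, a transcription factor also present in mural cells (0.0510). Their differences were -0.30 ± 0.12, -0.23 ± 0.10 and -0.26 ± 0.098, none past the adjusted threshold (adjusted p = 0.769 each by limma). For Pgf they were Ptrhd1 (0.0231), Plac9a (0.0318) and Lmod1, a smooth muscle actin nucleator (0.0398). Vegfc was nearest to Tgfb1i1, an adaptor of focal adhesions (0.0471), Bod1 (0.0510) and Ephx1, an epoxide hydrolase (0.0544). Nrp2 was nearest to Gatad2b (0.0210), Mrps10, of the mitochondrial ribosome (0.0286), and Usp42, a deubiquitinase (0.0354). Esm1 had more distant neighbours, Amer2 (0.0832), 4931403E22Rik (0.0834) and Ccdc163 (0.0944). The group difference is part of these profiles, so a short distance is a description of these arrays.

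Other genes of the VEGF pathway were read from 6 lists, which held 113 genes, 103 of them above the filter. None passed the adjusted threshold, and 13, or 12.6%, had an unadjusted p under 0.05, 5 higher and 8 lower. All probe sets gave 6.04%, with 2.63% higher and 3.41% lower. Without PBS array 2 there were 7, where all probe sets gave 5.02%. The lists were drawn up with results of these data known, so these counts describe them and support nothing further. Medians of the lists ran from -0.12 to +0.092, against -0.0038 over all probe sets.

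Of VEGFD, the class 3 semaphorins and the plexins, none of 10 tested genes had an unadjusted p under 0.05, and the median was -0.037. Vegfd, the second ligand of VEGFR3, read 6.43, 6.27, 6.18 and 5.80 after PDGF-CC and 6.73, 6.30 and 6.23 after PBS. Its difference was -0.25 ± 0.18. The semaphorin receptor genes Plxna1 and Plxna3 were at -0.23 ± 0.12 and +0.12 ± 0.083, each with overlapping groups. Sema3a, Sema3d and Sema3e were under the filter.

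The signal relay behind the receptors had 1 of 29 tested genes at an unadjusted p under 0.05, Prkca, a protein kinase C downstream of phospholipase C gamma, at +0.33 ± 0.13. Over all probe sets 2.63% were higher at that p. The list median was +0.036. Efnb2, the ephrin that steers internalisation of VEGF receptors, was at +0.33 ± 0.15, and Sphk1, a lipid kinase, at -0.18 ± 0.080.

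Genes that VEGF induces in endothelium had 2 of 21 higher and none lower at an unadjusted p under 0.05, with 14 positive and a median of +0.092. Over all probe sets 2.63% were higher and 3.41% lower at that p, and 51.6% were negative. In 1.8% PDGF-CC was higher without overlap. The transcription factor gene Hlx read 7.52, 7.55, 7.12 and 7.40 after PDGF-CC and 6.75, 6.61 and 6.81 after PBS, without overlap (+0.67 ± 0.11; adjusted p = 0.623 by limma). Plau, the urokinase gene, was also free of overlap, at 7.52 to 7.66 against 7.07 to 7.33 (+0.34 ± 0.075; adjusted p = 0.754 by limma). Dusp1, a phosphatase that ends MAP kinase signals, was at -0.25 ± 0.11.

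Tip cell genes, with 15 tested, had 2 higher and 1 lower at an unadjusted p under 0.05 and a median of -0.0023. Over all probe sets 2.63% were higher and 3.41% lower at that p. Without overlap, PDGF-CC was higher in 1.8% and lower in 2.5%. Pdgfb, by which tip cells recruit pericytes, read 8.38 to 8.52 after PDGF-CC and 8.23 to 8.31 after PBS (+0.20 ± 0.058; adjusted p = 0.769 by limma). Dll4, the Notch ligand that VEGF induces in tip cells, read 7.80, 7.71, 7.87 and 7.996 against 7.37, 7.52 and 7.71. PBS array 3 met the lowest PDGF-CC array in Dll4, and the difference was +0.31 ± 0.10. Rgcc, a cell cycle regulator, went the other way, with every PDGF-CC array between 7.99 and 8.13 and every PBS array between 8.62 and 8.89 (-0.66 ± 0.081; adjusted p = 0.282 by limma).

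Oxygen sensing and hypoxia target genes were negative in 19 of 20, with 4 lower and none higher at an unadjusted p under 0.05 and a median of -0.096. Of all probe sets 51.6% were negative, 3.41% were lower at that p, and 2.5% were lower in PDGF-CC without overlap. Several of the negative differences were near zero, among them those of Vhl (-7.6e-06), Egln3 (-0.0037) and Pgk1 (-0.0079). The mean of the list was 7.38 to 7.56 on PDGF-CC and 7.68 to 7.69 on PBS arrays. Vegfa is itself a target of hypoxia-inducible factors, and its own difference was -0.078. The 3 smallest p values belonged to Ddit4, an inhibitor of mTORC1 that glucocorticoids also induce, at -1.37 ± 0.26, Pfkfb3, an activator of glycolysis, at -0.57 ± 0.15, and Bnip3, a mitophagy receptor, at -0.43 ± 0.14. Ddit4 read 7.01, 7.87, 6.92 and 7.34 after PDGF-CC and 8.28, 8.67 and 9.01 after PBS, without overlap (adjusted p = 0.722 by limma). The factors themselves were closer to zero, with Hif1a at -0.065 ± 0.055 and Epas1 at -0.029 ± 0.082.

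Matrix genes that bind or release VEGF had 3 of 11 lower and none higher at an unadjusted p under 0.05, with a median of -0.12. Over all probe sets 3.41% were lower at that p, and 2.5% were lower in PDGF-CC without overlap. Ccn2, which can bind VEGF-A, was at -0.58 ± 0.21, Sulf1, which trims heparan sulfate, at -0.54 ± 0.19 and the proteoglycan gene Dcn at -0.47 ± 0.14. Sulf1 alone of these was free of overlap, at 6.82 to 7.46 after PDGF-CC and 7.47 to 8.08 after PBS. Dcn is also a fibroblast marker, and the mean of perivascular fibroblast markers was 5.82 to 5.99 in PDGF-CC and 6.00 to 6.12 in PBS arrays; its part in these differences was not tested.

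**Figure D4:**
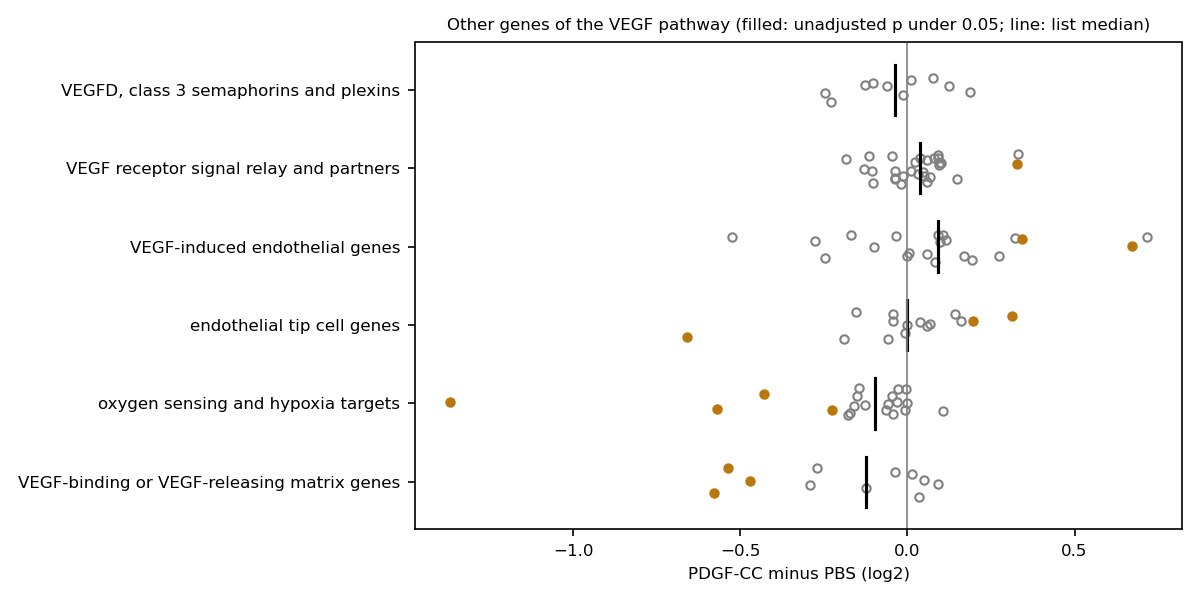
Difference in log2 intensity, PDGF-CC minus PBS (horizontal axis), for each tested gene of the 6 pathway lists (rows), filled where the unadjusted p was under 0.05, with the list median as a black line. Filled points lie below 0 in the hypoxia and matrix rows (4 and 3 genes) and above 0 in the row of VEGF-induced genes (2 genes). The tip cell row has 2 above and 1 below, and the signal relay row has 1 above.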

How the data were processed

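The authors' deposited values were log2 intensities of 33793 probe sets on 7 arrays. Per the submitters' processing notes, Affymetrix Expression Console, RMA and limma were used; the sources used here give no versions, settings or genome build. RMA equalises the distributions of arrays, which removes differences in total RNA. Per the labels' protocols, total RNA was amplified from whole transcripts and biotinylated.

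Genes were named from the platform annotation: 23521 probe sets had 1 symbol, 1814 several and 8458 none. The 17734 with any symbol whose mean over the 7 arrays exceeded the 30th percentile of such probe sets (4.145) entered the test. The groups were compared in limma 3.58.1 (R 4.3.3) with lmFit, then eBayes, 2-sided, without covariates, with Benjamini-Hochberg adjustment over all tested probe sets and a threshold of 0.05. The fit was tested on simulated data. Named were the 10 genes, from each pathway list up to 3 genes with the smallest p, and the 3 nearest profiles of each of the 10 genes with a range over 0.5. Genes outside that rule, among them Kcnj8, Abcc9, Hif1a, Epas1, Vhl, Egln3, Pgk1, Plvap, Igfbp3, Gpihbp1, Cd300lg, Apln, Adm, Mcam, Kcne3, Prox1 and Reln, were chosen with values known. The genes and lists were chosen with earlier results of these data known. List genes without a probe set of that symbol alone were not analysed here. Promoters came from RefSeq (GRCm38.p6). Figures used matplotlib 3.10.9. The number of arrays limits the precision.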

Additional observations from a re-analysis of the deposited data

Results flagged for a closer look

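Of 29 values tested in the PDGF-CC group of 4 arrays, 5 had 1 array whose gap to the nearest other was large for the group's range, where chance gives about 1 group in 20. Vegfa on PDGF-CC array 2 read 6.29, and the other 3 arrays held 1 identical value, 6.34. Flt4 on PDGF-CC array 4 read 7.43 beside 3 identical values of 7.41. Plxna3 on PDGF-CC array 2 read 4.88 beside 3 identical values of 4.62. In these 3 genes the ties leave the single differing array outlying at any distance. Vegfb on PDGF-CC array 1 read 8.25, against 7.9996 to 8.03 on the others. Pfkfb3 on PDGF-CC array 2 read 7.51, against 7.14 to 7.17.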

How the results depend on the processing

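None of the 10 genes passed the adjusted threshold in any of 169 results of 1 gene under another setting, with a lowest adjusted p of 0.412 by limma. These include, for each gene, the mean over its probe sets, which repeats the main fit since each gene had 1. Pgf, Vegfb and Nrp1 kept their sign throughout, and Vegfb was at 0.015 within description numbers 5 to 7. An unadjusted p under 0.05 was met by Nrp1 in 10 of its 19 alternatives, that repeat included, and by Pgf in 2 of 18. The comparisons within description numbers are among these alternatives and have no p. Esm1 was negative with array weights (-0.11), with description number as a covariate (-0.083) and within numbers 5 to 7 (-0.27), and without 1 array it ran from -0.17 to +0.18. Vegfc turned positive under array weights (0.066) and under the description number covariate (0.074), and without 1 array ran from -0.16 to 0.086. Flt1 turned positive after a second quantile normalization (0.053) and under the description number covariate (0.0085), and without 1 array ran from -0.069 to 0.025. Flt4 was 0.038 within numbers 1 to 4 and -0.15 within 5 to 7, and -0.075 to 0.041 without 1 array. Kdr and Nrp2 were at -0.11 and -0.14 within numbers 5 to 7, and without 1 array they ran from -0.000575 to +0.13 and from -0.11 to +0.17. Vegfa ran from -0.13 to +0.0025. Kdr minus Flt1 was -0.052 within numbers 5 to 7. Over all probe sets 3 were called when the filter was raised to the 50th percentile (5.332), when the prior was trended and robust and with arrays centred on their median, 1 with repeated quantile normalization, and 0 to 1 without 1 array (1 without PDGF-CC array 3). Pathway genes at an unadjusted p under 0.05 numbered 7 to 14 without 1 array.

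The correlations of the deviations of arrays with the same number in their titles were 0.163, 0.107 and 0.0844, and those of the 6 pairs with different numbers ran from -0.22 to 0.077. Each of these arrays thus correlated best with its own number, a hint from the data and not from the design. Within each group the title numbers rise with the description numbers, which principal component 1 followed. A shared order and a pairing of arrays therefore cannot be told apart here. Since 1 of the 3 correlations with the same number was under 0.1, the title numbers were not taken to pair the arrays. With that number as a replicate block, which leaves PDGF-CC array 4 without a partner, Esm1 was at -0.0041 and Nrp1 at -0.31, and 0 probe sets were called, with 1266 at an unadjusted p under 0.05 against 1071 without the block. Over 18 alternatives each, the median of the hypoxia list ran from -0.18 to -0.058, that of the matrix list from -0.16 to -0.047 and that of VEGF-induced genes from 0.010 to 0.13. The medians of the other 3 lists changed sign, in 13 alternatives for tip cell genes (-0.017 to 0.050), 3 for VEGFD, semaphorins and plexins (-0.090 to 0.029) and 1 for the signal relay (-0.019 without PBS array 2, to 0.060). The comparisons within description numbers, and the count of pathway genes under each alternative, were chosen after seeing the data. Taking the mean of all probe sets of a gene changed nothing, since each of the 10 genes had 1.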

Other observations

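Vegfc and Pgf, which had overlapping groups, mostly followed the numbers in the sample descriptions across both groups, as principal component 1 did. In the order of numbers 1 to 7, Vegfc read 7.93, 8.10, 7.98, 8.20, 8.20, 8.48 and 8.47. Pgf read 4.95, 4.90, 5.09, 5.21, 5.19, 5.20 and 5.43 in the same order. The mean of the pericyte markers was 8.69, 8.80, 9.13, 9.01, 9.06, 9.17 and 9.28, so its 2 lowest and its highest arrays were those of Pgf, though not in the same order at the low end. The likeness was not particular to pericytes. The mean of the perivascular fibroblast markers was 5.88, 5.82, 6.00, 6.08, 5.97, 5.99 and 6.12. Its 2 lowest and its highest arrays were also those of Pgf, in the same order. Nrp1 did not follow the description numbers, at 9.53, 9.21, 9.77, 9.53, 9.29, 9.53 and 9.65. The order was noticed in the data and was not tested, and the labels do not say what the numbers stand for.

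PBS array 2 was the lowest of the 7 arrays in 4 of the 10 genes (Kdr, Flt1, Flt4 and Nrp2) and the highest in Vegfa. PBS array 3 was the highest in 4 (Pgf, Flt1, Flt4 and Nrp2). Both the brain endothelial marker mean (10.30 on PBS array 2 and 10.54 on PBS array 3) and the microglial marker mean (9.05 and 9.46) were lower on the former. PDGF-CC array 1 also had an endothelial mean of 10.30. It held the highest Kdr value, 10.51, with Flt1 at 11.58, Flt4 at 7.41 and Nrp2 at 8.24. The part of marker levels in these values was not tested.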
